A study of Mus musculus with 4 samples.

Results

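Cultures of T helper 17 (Th17) cells were compared by Smad4 genotype at 37 °C, the temperature without fever-range heat. The comparison uses 2 of the 4 RNA-seq libraries of the series, 1 from wild-type (WT) cells and 1 labelled Smad4 knockout (KO), chosen by their temperature label. Both began as naive CD4+ T cells sorted from C57BL/6 spleen and lymph nodes and were held for 3 days in vitro with the cytokines TGF-β1 (transforming growth factor β1) and IL-6 (interleukin 6). The remaining 2 libraries are the same genotypes cultured at 39.5 °C, and they appear here only as a second pair that shares no library with the first. Not given in the sources used here were the knockout construct, the cells that carry it and the number of animals behind each library. Expression is given as RPKM, a read number divided by exon length and by library size. Genes were ranked by the difference of log2(RPKM + 1), the KO label minus WT, in the 13715 of 19555 rows whose 4-library mean reached 1 RPKM. With 1 library per side no difference had a replicate check and no test was run. Intervals on ratios are exact 95% intervals (Clopper-Pearson) from recovered reads, and they cover counting error only, not the spread between cultures. Since PCR reads are not independent molecules, the intervals may be too narrow even for counting error.

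SMAD4 is the shared partner of the receptor-activated SMAD proteins. TGF-β receptors phosphorylate SMAD2 and SMAD3, which bind SMAD4 and carry the signal to the nucleus, where SKI and SKIL act as corepressors of the complex. In CD4+ T cells TGF-β together with IL-6 drives the Th17 program and its products IL-17A and IL-17F. TGF-β without IL-6 favours regulatory T (Treg) cells, whose lineage factor is Foxp3.

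The targeted gene went against the label. Smad4, on chromosome 18, stood at 14.05 RPKM in the WT library and 20.7 RPKM in the library labelled Smad4 KO, from 950 and 1357 reads. At 39.5 °C the values were 14.2 and 21.3 RPKM. The ratio at 37 °C was 1.48 (95% interval 1.36 to 1.60). A value summed over all exons does not show whether part of the gene is deleted, and no label names the deleted part. The direction of every difference below is therefore that of the label, and "with the KO label" means in the library labelled Smad4 KO. Recovered reads ranged from 18049738 to 18476224 over the 4 libraries, and the rows at 0 numbered 112 to 180. Y-linked genes were detected and Xist was at most 0.0123 RPKM in the 37 °C pair.

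More genes were higher than lower with the KO label. At 37 °C, 645 rows (4.7% of those compared) were at least 2-fold higher, 156 (1.14%) were at least 2-fold lower, and the 801 together made up 5.84%. Throughout, 2-fold is a difference of 1 on the log2(RPKM + 1) scale, so the RPKM of a low gene can differ by more than 2-fold without passing. At 4-fold the counts were 92 and 13, at 8-fold 20 and 1, and at 16-fold 2 and 0. The median difference over all rows was −0.01 and the middle 90% of rows lay between −0.67 and 0.97, so the longer tail was on the high side. The asymmetry was also present among abundant genes: of 1967 rows with a pair mean of at least 50 RPKM, 114 were 2-fold higher and 15 were 2-fold lower.

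**Figure D1:**
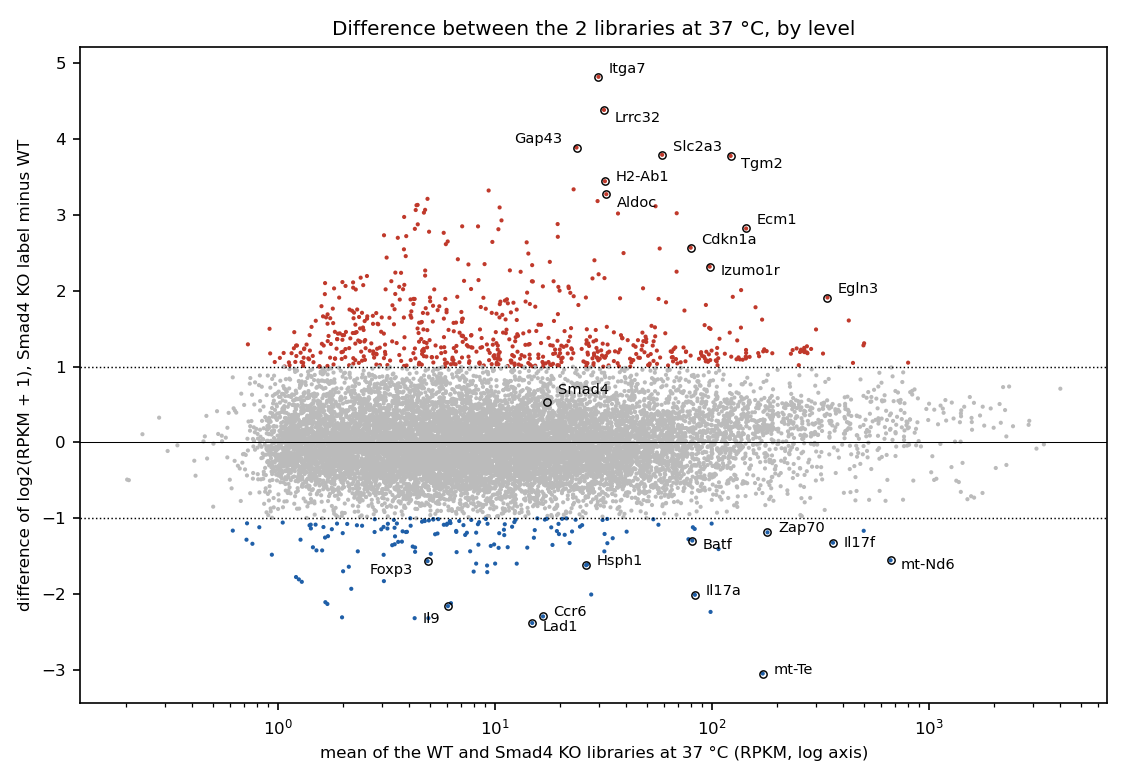
Each point is 1 of the 13715 rows, placed by its mean RPKM in the 37 °C pair (log axis) and its difference of log2(RPKM + 1), KO label minus WT; dotted lines mark 2-fold, and red and blue points lie beyond them. The 645 red points reach higher than the 156 blue points reach low, and Smad4 lies between the lines at 0.53.

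The genes of highest rank were of mixed function, and several of them are described with their lists. Itga7, the integrin α7 chain that binds laminin, stood at 1.11 RPKM in WT and 58.8 RPKM with the KO label, and at 0.128 and 11.8 RPKM at 39.5 °C. Its ratio at 37 °C was 52.9 (45.3 to 62.1), the highest rank of all rows compared, and it lies on chromosome 10 at 128933818 to 128958282 of GRCm38. Gap43, best known as a growth-cone protein of neurons, was at 2.13 and 45.4 RPKM, and at 13.2 and 79.3 RPKM at 39.5 °C. Transglutaminase 2 (Tgm2), which crosslinks proteins, was both abundant and far apart, at 15.7 against 228 RPKM (ratio 14.6, 13.8 to 15.4). The related transglutaminase gene Tgm1 had 6 reads in WT and 485 with the KO label, and the selenium-binding protein gene Selenbp1 had 6 and 386. Fam183b had 1 read in WT and 86 with the KO label, a ratio of 88.8 with an interval from 15.5 to 3548 that is too wide to place it. The leukotriene B4 receptor gene Ltb4r1, near Tgm1 on chromosome 14, was at 5.08 and 54.3 RPKM. A further row among these ranks, whose name matched no annotated gene, was at 1.40 and 19.6 RPKM. In bulk RNA, more cells of one kind and more RNA per cell cannot be told apart for these genes or for any that follow.

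Among rows with a pair mean of at least 50 RPKM, the largest differences on the high side were those of Slc2a3, Tgm2 and Ifitm2, followed by Serpinf1 and Ecm1. Ecm1, extracellular matrix protein 1, stood at 34.8 and 252 RPKM (ratio 7.25, 6.88 to 7.65). Serpinf1, which encodes the anti-angiogenic factor PEDF, was at 14.3 and 123 RPKM. Treml2, a receptor of the TREM-like family, was at 15.9 and 98.8 RPKM. These 3 were also higher with the KO label at 39.5 °C, where Ecm1 was at 34.5 and 144 RPKM.

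The 15 lowest ranks were of mixed kind too, with Il17a, Il9 and Ccr6 described under their lists. The mitochondrial glutamate tRNA gene mt-Te stood at 306 RPKM in WT and 36.2 RPKM with the KO label, the lowest rank of all rows, and at 276 and 90.5 RPKM at 39.5 °C. Ladinin 1 (Lad1), an anchoring filament protein, was at 25.6 and 4.10 RPKM (ratio 0.160, 0.140 to 0.184). Xcl1, the chemokine lymphotactin, was at 7.77 and 0.759 RPKM from 74 and 7 reads. Olfm2, which encodes a secreted olfactomedin-domain protein, had 125 reads in WT and 0 with the KO label, so it was at least 40.3-fold lower if the library at 0 is set to a floor of 3 reads. Gm26825, a gene on chromosome 5, was at 45.03 and 10.5 RPKM. Several of the lowest ranks rest on few reads: Mir3060 had 5 reads and 0, Traj35 had 4 and 0, Traj52 had 13 and 2, and RP24-366J10.6 had 13 and 1. The intervals of Mir3060 (0 to 1.13) and Traj35 (0 to 1.56) include a ratio of 1. RP23-42C15.2, with 84 and 9 reads, was better supported, and RP23-255L13.1 had 11 and 0.

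**Figure D2:**
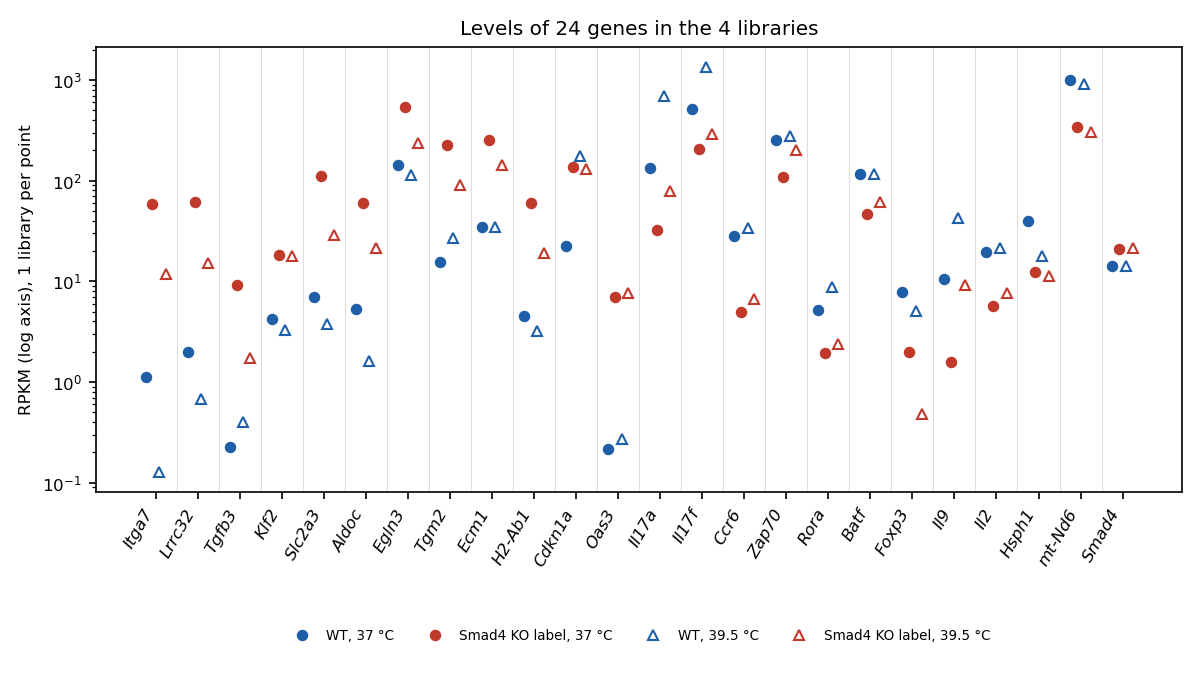
RPKM (log axis) of 24 genes in the 4 libraries, 1 point per library: blue for WT and red for the KO label, filled circles at 37 °C and open triangles at 39.5 °C. Itga7, Tgfb3, Oas3 and Lrrc32 have the widest gaps at 37 °C (Itga7 1.11 and 58.8 RPKM), and Cdkn1a is the gene of these 24 whose order turns at 39.5 °C.

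Among TGF-β pathway genes the largest differences were in ligand supply. Lrrc32 encodes GARP, which holds latent TGF-β on the cell surface, and it was at 1.99 RPKM in WT and 61.6 RPKM with the KO label, then 0.674 and 15.1 RPKM at 39.5 °C. The ligand gene Tgfb3 had 14 reads against 555 (0.227 and 9.30 RPKM, ratio 40.9, 24.2 to 75.4), and 0.398 and 1.73 RPKM at 39.5 °C. Those were the 2 of 14 measured ligand, receptor and activator genes past 2-fold, with 0 past 2-fold on the low side and a list median of 0.36. Tgfb1, the main T cell ligand, was at 134 and 189.6 RPKM, and Furin, the protease that cleaves its precursor, at 73.2 and 105 RPKM. The receptor gene Tgfbr1 was on the low side at 3.21 and 1.60 RPKM and Tgfbr2 on the high side at 12.1 and 16.3 RPKM. Of the activin and BMP receptor genes, Acvr2a was at 2.03 and 0.738 RPKM, Bmpr2 at 1.42 and 0.731 RPKM and Acvr1b at 7.43 and 11.05 RPKM. The co-receptor endoglin (Eng) was at 1.56 and 3.71 RPKM.

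Among the 13 measured SMAD and corepressor genes 0 passed 2-fold in either direction, and the median difference was 0.05. The intracellular effectors parted: Smad3 was at 24.98 and 41.9 RPKM (ratio 1.68, 1.60 to 1.76) and Smad2 at 18.9 and 13.5 RPKM (ratio 0.713, 0.652 to 0.779). The inhibitory Smad7, itself a SMAD target, was at 3.97 and 6.85 RPKM. The corepressor genes Ski and Skil were at 64.4 and 52.7 RPKM and at 4.42 and 4.68 RPKM. The ubiquitin ligase genes Smurf1 and Trim33 were at 7.20 and 10.7 RPKM and at 3.18 and 2.42 RPKM. Each of these differences was under 2-fold, and those of Smad2, Smad3 and Smad7 had the same sign at 39.5 °C.

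TGF-β and BMP response genes showed no common direction, with 2 of 19 at least 2-fold higher, 4 at least 2-fold lower and a median of 0.01. On the high side was Cdkn1a, the gene of p21, an inhibitor of cyclin-dependent kinases, at 22.3 and 137 RPKM. On the low side were Il9 at 10.5 and 1.59 RPKM, the chemokine receptor gene Ccr8 at 40.5 and 12.6 RPKM, Rgs16 at 15.5 and 6.45 RPKM, and Ahr. Commonly used SMAD targets differed little: Pmepa1 was at 30.3 and 30.4 RPKM, Skil at 4.42 and 4.68 RPKM and Klf10 at 2.76 and 2.60 RPKM. Of the ID genes, which block E-protein factors, Id1 was at 2.41 and 1.17 RPKM, Id2 at 74.7 and 100.5 RPKM and Id3 at 15.9 and 14.4 RPKM.

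Th17 effector genes were split, with the signature cytokines low and most other cytokine and receptor genes under 2-fold apart. Il17a, on chromosome 1 at 20730905 to 20734496, stood at 134 RPKM in WT and 32.6 RPKM with the KO label, a ratio of 0.243 (0.223 to 0.264). Its neighbour Il17f was at 516 and 206 RPKM, a ratio of 0.399. Ccr6, the chemokine receptor of Th17 cells, was at 28.3 and 4.98 RPKM, while its ligand gene Ccl20 was at 60.96 and 96.8 RPKM, on the other side. These cytokine and receptor genes had 14 measured members, 3 of them (Il17a, Il17f and Ccr6) at least 2-fold lower, 0 at least 2-fold higher, and a median of −0.47. Il1r1, the IL-1 receptor that promotes Th17 differentiation, was at 2.90 and 1.05 RPKM, and the IL-6 signal chain Il6st at 4.43 and 2.61 RPKM. Il23r was at 2.25 and 1.53 RPKM and Il21 at 54.2 and 65.6 RPKM, both under 2-fold apart. Il22 was barely detected, at 0.0495 and 0.102 RPKM.

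Transcription factors of the Th17 program differed in both directions. The nuclear receptor gene Rora stood at 5.14 RPKM in WT and 1.93 RPKM with the KO label (ratio 0.375, 0.336 to 0.418). The AP-1 factor Batf, needed for Th17 differentiation, was at 116 and 46.6 RPKM (ratio 0.403, 0.376 to 0.431), the aryl hydrocarbon receptor Ahr at 29.7 and 12.2 RPKM, and Ikzf3 (Aiolos) at 14.6 and 5.16 RPKM. Rora, Batf, Ahr and Ikzf3 were the 4 of 14 factors at least 2-fold lower. Fosl2, an AP-1 factor, was the 1 factor at least 2-fold higher, at 9.56 and 20.2 RPKM. Other factors of the program were on the high side below 2-fold: Maf was at 33.3 and 57.6 RPKM, Bhlhe40 at 53.1 and 86.9 RPKM and Stat3 at 32.7 and 45.4 RPKM. Batf's partner Irf4 was at 499 and 528 RPKM and Hif1a at 60.4 and 63.2 RPKM. The factor list as a whole had a median of 0.16.

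RORα, the product of Rora, binds the letters AGGTCA, searched here on both strands as a bare hexamer in the window from 250 bases before to 50 bases after each start, using RefSeq promoters of GRCm38.p6. The windows of Il17a (chr1:20730655-20730954, plus strand) and Il17f (chr1:20784221-20784520, minus strand) are shown because both cytokine genes were low beside a low Rora. Capitals mark the match, which for Il17a is the reverse complement.
Il17a: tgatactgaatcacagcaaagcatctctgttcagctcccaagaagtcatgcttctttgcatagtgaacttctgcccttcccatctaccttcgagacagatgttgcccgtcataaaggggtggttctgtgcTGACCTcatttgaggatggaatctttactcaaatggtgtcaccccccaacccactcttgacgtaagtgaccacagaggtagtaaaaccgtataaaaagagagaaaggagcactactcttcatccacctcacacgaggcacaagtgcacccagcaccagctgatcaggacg
Il17f: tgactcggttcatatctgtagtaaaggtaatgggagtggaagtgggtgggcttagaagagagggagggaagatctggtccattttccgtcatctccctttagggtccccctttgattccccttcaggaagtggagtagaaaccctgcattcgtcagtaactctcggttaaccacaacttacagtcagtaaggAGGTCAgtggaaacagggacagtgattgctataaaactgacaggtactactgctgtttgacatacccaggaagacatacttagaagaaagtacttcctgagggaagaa
Each holds 1 match. Of 13 measured cytokine and receptor genes with a promoter entry 5 (38.5%) hold the hexamer, against 1059 of 7203 genes (14.7%) among all rows compared. The share was 56 of 313 (17.9%) among genes at least 2-fold higher and 12 of 73 (16.4%) among those at least 2-fold lower. The SMAD box, searched as CAGAC on both strands, was in 51.9% of all genes' promoters, 59.7% of the genes at least 2-fold higher and 60.3% of those at least 2-fold lower. A match describes letters in a window and is not evidence of binding.

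Genes of other helper lineages differed in both directions. Foxp3 stood at 7.80 RPKM in WT and 1.98 RPKM with the KO label, and at 5.10 and 0.477 RPKM at 39.5 °C. Yet 4 of the 15 measured Treg genes were at least 2-fold higher and 1, Foxp3 itself, at least 2-fold lower. The 4 were Lrrc32, Izumo1r (folate receptor 4) at 31.9 and 163 RPKM, Tnfrsf18 (GITR) at 40.9 and 146 RPKM and the orphan receptor gene Gpr83 at 5.69 and 19.5 RPKM. The suppressive receptor genes Ctla4 and Il2ra were below 2-fold, at 182 and 239 RPKM and at 306 and 394 RPKM. Il10 was at 2.10 and 1.38 RPKM.

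The lineage factors of Th1, Th2 and follicular helper (Tfh) cells were low in both libraries. Tbx21 (T-bet) was at 0.419 and 0.501 RPKM, Gata3 at 0.662 and 1.03 RPKM and Bcl6 at 1.17 and 0.719 RPKM. Of 10 measured Th1 and cytotoxic genes the 2 past 2-fold were both high, the IL-12 receptor chain Il12rb2 at 2.26 and 15.6 RPKM and the chemokine gene Ccl5 at 2.12 and 7.03 RPKM. The chemokine genes Ccl3 and Ccl4 were on the low side, at 0.932 and 0.0740 RPKM and at 2.50 and 1.29 RPKM. Of the Th2 and Th9 genes, Il4 had 5 reads in WT and 78 with the KO label, whereas Il9 had 103 and 15. Of 11 Tfh genes 8 were below 0 and the median was −0.39. Tox2 was at 16.98 and 5.90 RPKM, the B cell coactivator gene Pou2af1 at 72.1 and 35.2 RPKM and the homing receptor gene Cxcr5 at 2.77 and 0.936 RPKM, while the SLAM adaptor Sh2d1a, at 1.48 and 5.24 RPKM, was the 1 gene of that list at least 2-fold higher.

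Some genes of the naive and homing state were higher. Klf2, a factor of T cell quiescence and trafficking, stood at 4.25 and 18.4 RPKM (ratio 4.34, 3.61 to 5.25). The IL-7 receptor gene Il7r was at 1.62 and 7.96 RPKM and Igfbp4 at 141 and 329 RPKM. These were among the 4 of 14 naive and homing genes at least 2-fold higher. Ccr7 was close to level at 373 and 356 RPKM, and the quiescence factor Foxp1 was the 1 gene at least 2-fold lower, at 26.9 and 9.92 RPKM. The median of the list was 0.26.

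Adhesion and chemokine receptors differed in both directions, 4 of 17 at least 2-fold higher and 3 lower. Beside Itga7, the gut-homing integrin chain Itgb7 was at 46.2 and 97.3 RPKM and Cxcr4 at 11.2 and 33.6 RPKM. The low ones were Ccr6, Ccr8 and Cxcr6, the last at 2.22 and 0.323 RPKM. Itgb1, the partner chain of integrin α7, was at 41.2 and 28.9 RPKM, so it did not share the difference of Itga7. Of 18 activation and checkpoint receptors, the costimulatory receptor gene Tnfrsf9 (4-1BB) was at 51.5 and 198 RPKM and the CD30 ligand gene Tnfsf8 at 6.40 and 18.9 RPKM, while the inhibitory receptor gene Btla was at 45.02 and 18.9 RPKM and Cd200 at 111 and 45.1 RPKM. PD-1 (Pdcd1) was at 18.9 and 10.96 RPKM. The list of AP-1, EGR and NR4A factors had 4 of 16 genes at least 2-fold higher and 0 lower. The 4 were Ier3 at 3.88 and 34.99 RPKM, Batf3 at 0.309 and 8.24 RPKM, Fos at 1.07 and 3.76 RPKM, and Fosl2.

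The T cell receptor machinery was not uniform. Zap70, the kinase recruited to the activated receptor, stood at 251 and 109.6 RPKM (ratio 0.437, 0.424 to 0.451), and Cd247, the ζ chain it binds, at 21.4 and 9.06 RPKM. The adhesion receptor Cd2 was at 158 and 445 RPKM (ratio 2.82). Of 15 T cell identity genes 2 were at least 2-fold lower (Zap70 and Cd247) and 2 higher, Cd2 among them, and the median was 0.14. Core identity genes were under 2-fold apart, with Cd4 at 192 and 212 RPKM, Cd3e at 49.04 and 53.1 RPKM and Trac at 564 and 599 RPKM, so the markers of the labelled cell type were present in both libraries.

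Targets of hypoxia-inducible factors (HIF) were higher as a group. All 25 measured targets were above 0, against 48.9% of all rows. At least 2-fold higher were 15 of them, against 4.7% of all rows, 0 were lower, and the median was 1.20. Of all 27 with a row, 27 were above 0 and 16 at least 2-fold higher. The list was chosen with earlier results of these data known, so the counts are description only. Slc2a3, the high-affinity glucose transporter GLUT3, stood at 7.05 RPKM in WT and 111 RPKM with the KO label, then 3.77 and 29.0 RPKM at 39.5 °C. The HIF prolyl hydroxylase gene Egln3, which feeds back on HIF, was the most abundant of the 15, at 142 and 538 RPKM. Ddit4, an mTORC1 inhibitor, was at 23.1 and 114 RPKM and Ndrg1 at 1.83 and 18.9 RPKM. The mitophagy receptor genes Bnip3 and Bnip3l were at 3.90 and 22.4 RPKM and at 7.84 and 18.7 RPKM. Vegfa was at 7.32 and 18.1 RPKM, Rgcc at 82.9 and 257 RPKM and the collagen prolyl hydroxylase P4ha2 at 0.845 and 6.80 RPKM. P4ha2 reached the minimum mean only through the libraries with the KO label. The smallest differences were those of the histone demethylase Kdm3a (5.68 and 6.60 RPKM) and of Pfkfb4. Adm was listed at 0 in WT and 2.59 RPKM with the KO label, under the minimum for the ranking. Hif1a mRNA was near level, as given above.

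All 19 glycolysis genes were likewise above 0, 7 at least 2-fold higher and 0 lower, with a median of 0.89. The shares of all rows were 48.9% above 0 and 4.7% at least 2-fold higher. This list too was chosen with earlier results of these data known. Slc2a3, Aldoc, Slc2a1 and Hk2 belong to both lists. Aldoc, the aldolase C gene, was at 5.28 and 59.9 RPKM (ratio 11.3, 10.1 to 12.8), and the transporter gene Slc2a1 (GLUT1) at 73.3 and 188 RPKM. The lactate exporter Slc16a3 was at 49.8 and 144 RPKM, hexokinase 1 at 27.4 and 72.1 RPKM and Pgk1 at 142 and 320.1 RPKM. The highest levels of the list in WT were those of Ldha and Pkm, enzymes of the last steps: Ldha was at 666 and 874 RPKM and Pkm at 549.7 and 956 RPKM. Summed over the 19 genes the level was 2953 RPKM in WT and 5163 RPKM with the KO label. Nuclear genes of the respiratory chain stood in contrast, with 0 of 30 past 2-fold either way and a median of 0.09.

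HIF binds a core of ACGTG or GCGTG, searched on both strands in the same windows. It was present for all 21 measured HIF targets with a promoter entry, but also for 70.8% of all genes, so the core alone separates little. Bnip3 is shown because 5 matches, some overlapping, fall in its window (chr7:138909457-138909756, minus strand); capitals mark them.
Bnip3: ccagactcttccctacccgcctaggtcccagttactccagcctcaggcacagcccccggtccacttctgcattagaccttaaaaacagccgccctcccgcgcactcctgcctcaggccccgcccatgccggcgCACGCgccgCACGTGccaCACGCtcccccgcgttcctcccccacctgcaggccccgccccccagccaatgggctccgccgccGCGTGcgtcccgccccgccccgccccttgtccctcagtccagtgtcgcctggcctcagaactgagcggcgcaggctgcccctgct
Among the genes at least 2-fold higher 58.1% hold the core, and among those at least 2-fold lower 69.9%.

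**Figure D3:**
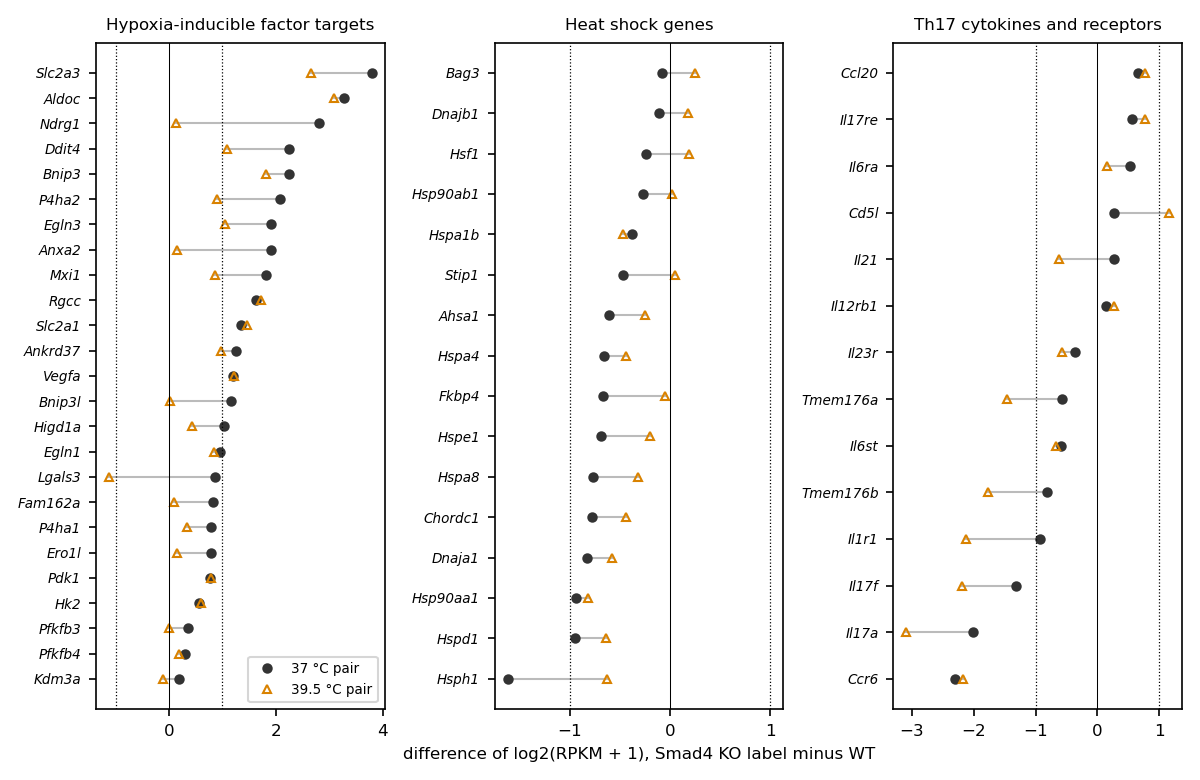
Difference of log2(RPKM + 1), KO label minus WT, for each measured HIF target, heat shock gene and Th17 cytokine or receptor gene, in the 37 °C pair (black circles) and the 39.5 °C pair (open triangles); dotted lines mark 2-fold. All 25 HIF targets lie above 0 and all 16 heat shock genes below 0 at 37 °C, while Il17a and Il17f lie lower at 39.5 °C than at 37 °C.

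Part of the interferon-stimulated genes were on the high side. Of all 25 with a row, 22 were above 0, 8 at least 2-fold higher and 0 lower, with a median of 0.47. The shares of all rows compared were 48.9% above 0 and 4.7% at least 2-fold higher. The 15 that reached the minimum mean had a median of 1.13 and were all above 0, but 5 of them (Isg20, Ddx58, Oas3, Irf7 and Dhx58) had a mean below that minimum over the WT libraries and passed through those with the KO label. At a minimum mean of 0.1 RPKM the median was 0.58. The antiviral synthetase Oas3 stood at 0.217 RPKM in WT and 6.91 RPKM with the KO label (28 and 862 reads, ratio 31.8, 21.8 to 48.1), and at 0.271 and 7.63 RPKM at 39.5 °C. The RNA sensor genes Dhx58 and Ddx58 were at 0.235 and 4.57 RPKM and at 0.631 and 3.48 RPKM. The nucleic acid sensor Zbp1 was at 3.58 and 14.6 RPKM, the ubiquitin-like modifier Isg15 at 0.799 and 4.87 RPKM, and the master factor of the response Irf7 at 0.291 and 2.13 RPKM. More abundant were Gbp2, a guanylate-binding protein gene, at 89.2 and 197 RPKM, and Ifi27l2a at 59.99 and 156 RPKM. Stat2 and Irf9, members of the transcription complex that drives these genes, were under 2-fold apart, at 1.81 and 3.17 RPKM and at 4.12 and 7.83 RPKM. Ifit2 and Isg20 differed least, and 10 further genes of the list, among them Ifit1, Ifit3, Mx1 and Oasl2, were under the minimum mean.

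The element bound by that complex was searched as GAAANNGAAA on both strands. It was in the promoters of 7 of 11 measured interferon-stimulated genes with an entry (63.6%) and of 260 of 7203 genes overall (3.61%). Promoters of 25 of 313 genes at least 2-fold higher (7.99%) and 2 of 73 at least 2-fold lower held it. The 11 leave out list members under the minimum mean. They include Oas3, Ddx58 and Irf7, which passed that minimum through the libraries with the KO label. Isg15 (chr4:156200769-156201068, minus strand) with 3 overlapping matches and Oas3 (chr5:120777610-120777909, minus strand) with 1 are shown because both were among the 8 on the high side, and capitals mark the matches.
Isg15: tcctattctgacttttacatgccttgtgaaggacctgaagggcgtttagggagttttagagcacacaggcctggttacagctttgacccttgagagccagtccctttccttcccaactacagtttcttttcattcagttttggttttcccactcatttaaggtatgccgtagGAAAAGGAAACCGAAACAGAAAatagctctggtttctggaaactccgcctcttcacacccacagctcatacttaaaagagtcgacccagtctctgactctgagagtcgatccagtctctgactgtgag
Oas3: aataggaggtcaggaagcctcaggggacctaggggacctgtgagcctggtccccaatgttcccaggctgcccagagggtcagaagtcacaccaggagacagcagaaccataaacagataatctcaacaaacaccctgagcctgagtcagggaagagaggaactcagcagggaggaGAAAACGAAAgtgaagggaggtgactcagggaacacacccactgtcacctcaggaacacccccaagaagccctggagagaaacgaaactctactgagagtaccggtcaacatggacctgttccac
The window of Irf7, also among the 8, holds no match.

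Some other immune surface genes were higher too. The lists of this paragraph were drawn up after their values were seen. The interferon-induced membrane genes Ifitm2 and Ifitm3 were at 10.6 and 99.3 RPKM and at 3.32 and 42.7 RPKM. Ly6a (Sca-1) was at 53.5 and 219 RPKM, Ly6c1 at 0.982 and 8.55 RPKM and Gimap7 at 4.42 and 34.5 RPKM, while Gimap1 and Gimap8 were level. All 17 measured Ly6, IFITM and GIMAP genes were above 0 and 9 at least 2-fold higher, against 48.9% and 4.7% of all rows. Of the 17, Ifitm1 reached the minimum mean only through the libraries with the KO label. The Ly6, IFITM and GIMAP genes are families of related neighbouring genes, and reads of similar members may be split between them. The MHC class II chain gene H2-Ab1 was at 4.56 and 59.6 RPKM (ratio 13.1, 10.98 to 15.7). Its partner chain H2-Aa, at 0.615 and 0.333 RPKM, and H2-Eb1, at 0.788 and 0.383 RPKM, were not high. The peptide-loading gene H2-DMa was at 4.88 and 24.7 RPKM, the invariant chain Cd74 at 12.7 and 23.3 RPKM and the class II transactivator Ciita at 0 and 0.0357 RPKM.

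Markers of cells other than CD4+ T cells were examined beside these genes. Of 17 myeloid and dendritic markers 8 had a row and 3 were measured; their summed level was 13.2 RPKM in WT and 62.7 RPKM with the KO label, and 11.9 and 28.6 RPKM at 39.5 °C. That sum was mostly Ly6g (9.97 and 50.1 RPKM), a member of the Ly6 family, and Batf3. The remaining measured marker, Cd68, was at 1.70 and 3.61 RPKM, and at 4.57 and 8.17 RPKM at 39.5 °C. All 3 measured markers were thus higher with the KO label, and of the 8 rows 6 were above 0 and 2 below. Among the markers under the minimum mean, Cd14 was at 0 and 0.216 RPKM and Csf1r at 0.0674 and 0.0812 RPKM. Itgax was at 0 and 0.0118 RPKM and Lyz2 at 1.0 and 0.345 RPKM. B cell markers summed to 14.9 and 9.59 RPKM, nearly all of it Ighm (14.3 and 8.69 RPKM), with Cd79a at 0.151 and 0.311 RPKM. CD8 and NK markers summed to 4.73 and 5.94 RPKM, γδ T cell markers to 0.352 and 0.314 RPKM and erythroid and platelet markers to 0.349 and 0.593 RPKM. The part of other cells in the class II, Ly6 and interferon values was not tested.

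Heat shock genes were lower with the KO label at 37 °C. All 16 measured were below 0, against 51.1% of all rows, and the median was −0.66. At least 2-fold lower was 1 of them, against 1.14% of all rows. The list was chosen with earlier results of these data known, so the counts are description only. Hsph1, the HSP110 nucleotide exchange factor, stood at 40.2 RPKM in WT and 12.4 RPKM with the KO label, a ratio of 0.309 (0.292 to 0.327), and at 18.0 and 11.3 RPKM at 39.5 °C. The mitochondrial chaperonin gene Hspd1 was at 104 and 53.5 RPKM and its lid Hspe1 at 82.6 and 50.8 RPKM. Hsp90aa1 was at 52.3 and 26.7 RPKM, the constitutive HSP70 gene Hspa8 at 795 and 466 RPKM, and the co-chaperone Dnaja1 at 6.35 and 3.14 RPKM. Smallest were the differences of the stress-inducible co-chaperone genes Bag3 (13.97 and 13.2 RPKM) and Dnajb1 (44.4 and 40.98 RPKM) and of their regulator Hsf1, at 14.4 and 12.01 RPKM. The list median at 39.5 °C was −0.29, and 5 of 16 were above 0 there. ER folding genes did not follow, with a median of 0.12 over 20 genes and 1 past 2-fold, the factor Xbp1 at 76.4 and 169 RPKM.

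Part of the growth machinery was lower in the same library. The ribosome biogenesis list, drawn up after values were seen, had all 30 genes below 0, 5 at least 2-fold lower and a median of −0.73. Among all rows, 51.1% were below 0 and 1.14% at least 2-fold lower. Wdr74 was at 12.7 and 3.22 RPKM, Pno1 at 47.5 and 18.3 RPKM, nucleolin (Ncl) at 115 and 51.6 RPKM, the box C/D core protein Nop58 at 11.7 and 5.01 RPKM and the helicase Ddx21 at 135 and 63.9 RPKM. Myc, which drives these genes, was at 483 and 379 RPKM. The ribosomal proteins themselves went the other way: 35 of 38 were above 0, with a median of 0.30 and 0 past 2-fold. Rps3 was at 245 and 351 RPKM and Rps6 at 321 and 452 RPKM; these genes have many pseudogene copies, so their reads are uncertain.

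All 24 DNA replication genes were below 0 as well, by small amounts, with 1 past 2-fold and a median of −0.33. The shares of all rows were 51.1% below 0 and 1.14% at least 2-fold lower. Gins1, of the replicative helicase, was at 12.5 and 5.68 RPKM (ratio 0.456, 0.375 to 0.554), the primase gene Prim1 at 10.9 and 5.85 RPKM, Mcm4 at 78.9 and 48.1 RPKM and Mcm3 at 226 and 148 RPKM. The G1 cyclin gene Ccne1 was at 16.4 and 16.4 RPKM. Mitosis genes showed no such shift, with 12 of 21 above 0, 0 past 2-fold and a median of 0.04. Plk1 was at 31.8 and 49.3 RPKM and Mki67 at 15.7 and 13.8 RPKM. At 39.5 °C the replication median was −0.09 and the mitosis median −0.33.

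Transcripts of the mitochondrial genome were lower while nuclear respiratory genes were not. All 13 protein-coding mitochondrial genes were below 0 at 37 °C, against 51.1% of all rows, and 2 were at least 2-fold lower, against 1.14%. Their median was −0.73 at 37 °C and −0.81 at 39.5 °C. This list too was drawn up after values were seen. The gene mt-Nd6, the 1 protein gene on the minus strand, stood at 993 and 337 RPKM (ratio 0.340, 0.326 to 0.354), then 920.2 and 308 RPKM at 39.5 °C. The adjacent minus-strand tRNA gene mt-Te and the minus-strand mt-Ty (163 and 33.8 RPKM) were also far down the ranking. The overlapping plus-strand gene mt-Nd5 was at 692 and 308 RPKM, and mt-Co1, the subunit least apart, at 3213 and 3037 RPKM. No source used here says whether the counting used strand, so reads from opposite strands of the same bases cannot be told apart. The genes mt-Nd5 (11742 to 13565) and mt-Nd6 (13552 to 14070) share only the bases from 13552 to 13565.

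Genes of the p53 pathway were mixed at 37 °C, 4 of 19 at least 2-fold higher, 0 lower and a median of 0.23, against a median of −0.48 at 39.5 °C. Beside Cdkn1a the higher ones were Btg2, an antiproliferative gene, at 5.46 and 17.1 RPKM, Plk2 at 1.04 and 3.41 RPKM, and Bbc3 (PUMA) at 5.22 and 11.8 RPKM. Mdm2, the p53 ubiquitin ligase and a direct p53 target, was at 9.40 and 11.2 RPKM, and Bax at 66.3 and 61.5 RPKM. Cholesterol synthesis genes had 0 of 22 past 2-fold and a median of 0.01, with Idi1 at 13.7 and 7.73 RPKM and Sqle at 30.6 and 21.2 RPKM. Genes of the ATF4 response had a median of −0.04 over 20 genes. The pseudokinase Trib3, at 2.07 and 8.27 RPKM, was their 1 member past 2-fold, while the amino acid transporter gene Slc7a5 was at 164 and 115 RPKM.

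**Figure D4:**
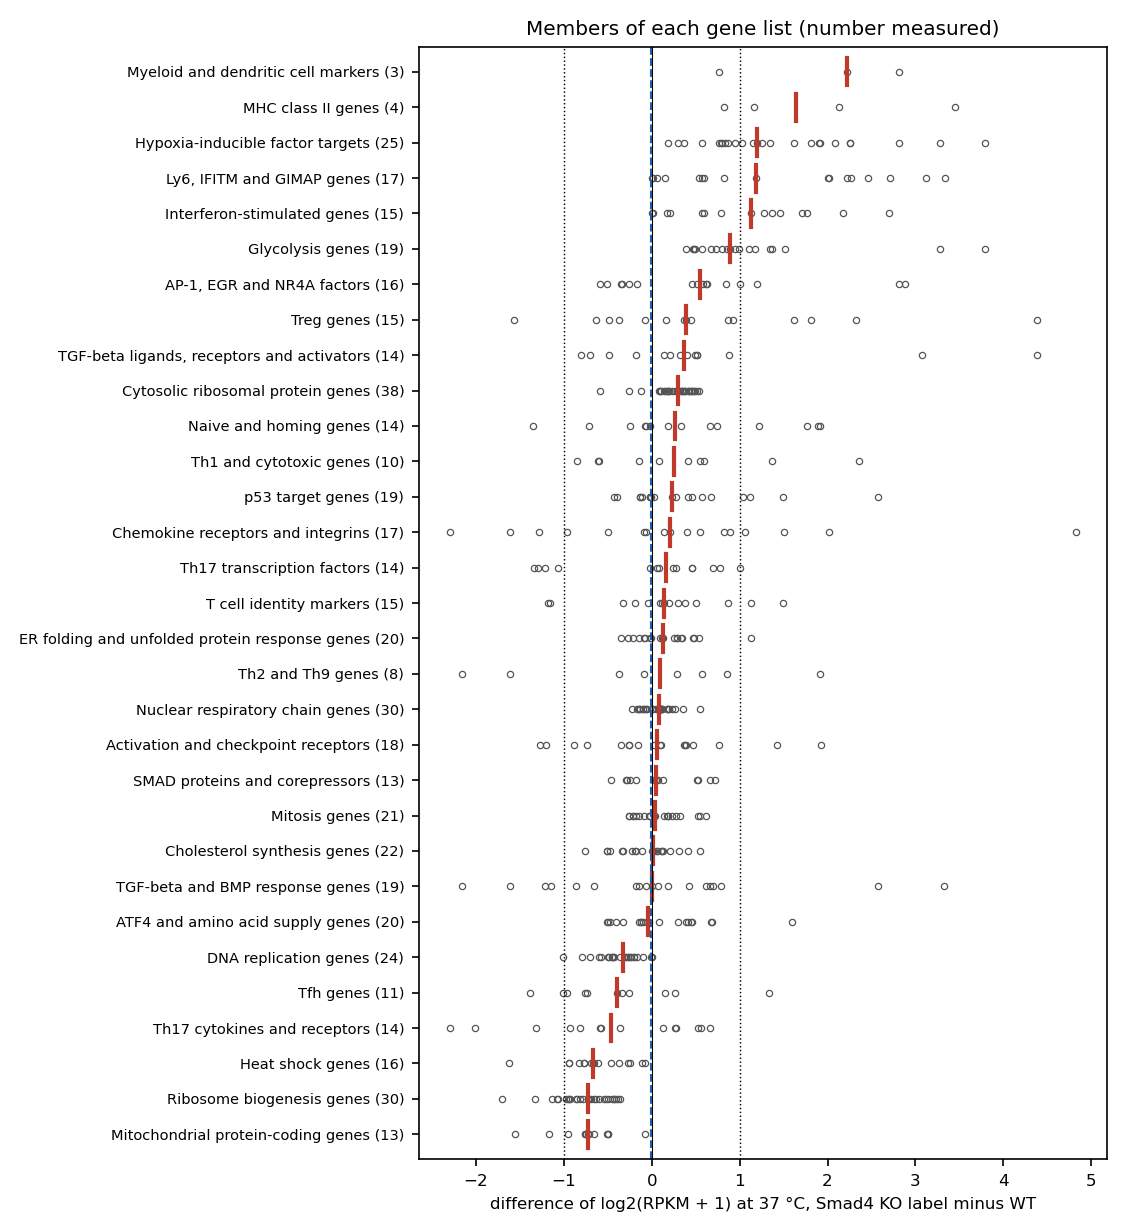
Difference of log2(RPKM + 1) at 37 °C, KO label minus WT, for each measured member (open circles) of each gene list, with the list median in red; the blue dashed line is the median of all rows, −0.01, and dotted lines mark 2-fold. The measured HIF target, glycolysis and interferon-stimulated genes lie wholly above 0, and heat shock, ribosome biogenesis and mitochondrial genes wholly below.

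Most of these differences had the same sign at 39.5 °C and were smaller there. Of the 645 genes at least 2-fold higher at 37 °C, 622 were above 0 in the 39.5 °C pair, 226 (35.0%) were again at least 2-fold higher, and 576 had a smaller difference. Of the 156 lower genes 142 were below 0 at 39.5 °C, 42 (26.9%) again at least 2-fold lower, and 133 smaller in size. A set chosen in one pair tends to lie nearer 0 in another. In the 39.5 °C pair itself, the median difference over all rows compared was 0.003. There 315 rows (2.3%) passed 2-fold on the high side and 144 (1.05%) on the low side. Among the Th17 genes Il17a, Il17f and Il1r1 were among the exceptions with a larger difference at 39.5 °C; Il17f was at 1338 and 292 RPKM there and Il1r1 at 13.8 and 2.38 RPKM. The 15 measured interferon-stimulated genes had medians of 1.13 and 1.17 in the 2 pairs. Of the HIF targets 20 of 25 had a larger difference at 37 °C, and Ndrg1 was nearly level at 39.5 °C (5.05 and 5.60 RPKM).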

How the data were processed

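Per the labels' protocols, RNA came from a Trizol extraction and the kit for library construction was NEXTflex. Per the submitters' processing notes, edgeR, Subread, featureCounts, Bowtie2 and Trim Galore 0.4.4 were used, with build mm10. Settings, strandedness and annotation release were not given in the sources used here. For each library the authors deposited RPKM values in 19555 rows. Since such values are not counts, no count test was run.

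Samples were grouped by the genotype and treatment labels. Differences of log2(RPKM + 1) were computed with pandas 2.3.3 for rows whose mean over the 4 libraries reached 1 RPKM. Some list members, among them Tgfb3, Itga7, P4ha2 and Il4, reached that mean only through the libraries with the KO label. The pseudocount of 1 RPKM understates the difference of low genes. Whole reads were recovered from the RPKM values for 19554 rows (tolerance 0.01 reads), 12053 of them at the exon length of GENCODE vM21; for rows fitted with another length the reads may be too few by a whole factor, which widens the interval. Effective library sizes divided by recovered reads were 1.01 for WT and 0.955 for the KO label at 37 °C, so the deposited values carry a further scaling factor. Ratios have exact 95% Clopper-Pearson intervals (scipy 1.17.1). The recovery was tested on simulated data. Coordinates come from GENCODE vM21 (GRCm38); 9746 of the 13715 rows matched 1 gene name.

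Members and lists (32, plus 4 drawn up after values were seen) were chosen with earlier results of these data known. Named were the 15 highest and 15 lowest ranks, the 10 highest and 10 lowest among rows with a pair mean of at least 50 RPKM, up to 5 members of each list with the largest difference, 8 lineage genes, and genes at least 2-fold apart in opposite directions in the 2 pairs; other list members were chosen after their values were seen. A few genes that the rule names are not reported here, but list counts include them. Alternatives were other pseudocounts, minimum means and scalings. With 1 library per group the spread between animals or cultures is unknown.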

Additional observations from a re-analysis of the deposited data

Results flagged for a closer look

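Of the 165 genes named by the rule, 15 had differences of opposite sign in the 37 °C and 39.5 °C pairs. In 4 of these 1 pair or both were at least 2-fold apart, each pair held 20 or more reads, and the counting interval of the ratio left out 1 in both pairs; the difference between the pairs was not tested, since each pair has 1 library per side. Values are given for WT first and the KO label second. Cdkn1a had 22.3 and 137 RPKM in the 37 °C pair but 178 and 130.3 RPKM in the 39.5 °C pair. Its log2 difference at 37 °C less that at 39.5 °C was 3.01. Basp1, which encodes a membrane-bound signalling protein, was at 7.57 and 24.2 RPKM, then 12.2 and 4.79 RPKM, a gap of 2.75. The polo-like kinase gene Plk2 was at 1.04 and 3.41 RPKM, then 5.88 and 3.45 RPKM, a gap of 1.74. The collagenase gene Mmp13 went the other way, at 14.95 and 5.96 RPKM, then 1.98 and 5.34 RPKM, a gap of −2.29.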

How the results depend on the processing

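Counts at the 2-fold rule moved with the pseudocount and the rows kept. With a pseudocount of 0.1 RPKM they were 900 higher and 320 lower, and with 5 RPKM 293 and 39. With a minimum mean of 5 RPKM they were 417 and 95, and with protein-coding rows only, chosen after seeing the data, 408 and 80. Scaling to recovered reads gave 551 and 208 with a median of all rows of −0.08, and upper quartile scaling 633 and 160. Th17 cytokines and receptors had medians of −0.63 and −0.22 at pseudocounts of 0.1 and 5 RPKM, and −0.36 and −0.81 at minimum means of 0.1 and 5 RPKM. At a pseudocount of 5 RPKM the medians were 0.90 for HIF targets, −0.52 for heat shock genes and 0.49 for interferon-stimulated genes; the last had 0.58 and 0.96 at minimum means of 0.1 and 5 RPKM. None of these results reversed. Of 165 named genes 1, Eif2s3y, changed sign (−0.04 with scaling to recovered reads). Of 31 list medians 7 changed sign under at least 1 alternative; the farthest was that of Th2 and Th9 genes, −0.85 at a minimum mean of 5 RPKM. The others, within 0.07 of 0 there, were the activation, ATF4, SMAD, TGF-β response, cholesterol and mitosis lists.

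No paired analysis was possible because the labels carry no replicate numbers and each group has 1 library; for the same reason no replicate could be left out. Depth limits the short and rare rows: with at least 20 reads in the pair, 626 and 130 rows passed 2-fold.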

Other observations

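Small nucleolar RNAs, which guide the modification of ribosomal RNA and mostly lie in introns of growth-related genes, leaned low at 37 °C: of 66 measured, 13 were at least 2-fold lower and 1 higher with the KO label, with a median of −0.43, where 1.14% of all rows compared were lower and 4.7% higher. Mitochondrial tRNA rows gave 4 of 17 lower and 1 higher. T cell receptor J segments were spread, with 5 of 56 higher and 6 lower. These rows are short and rest on few reads. Across annotated genes the median difference went from 0.03 in the fifth with the shortest exon length to −0.10 in the fifth with the longest, a gradient smaller than 2-fold.

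Of 17 rows within 2 Mb of Smad4 on chromosome 18, 1 was at least 2-fold higher, 0 were lower and the median was 0.04. That gene was Me2, the mitochondrial malic enzyme gene and a close neighbour of Smad4, at 45.7 RPKM in WT and 106 RPKM with the KO label, then 49.9 and 74.2 RPKM at 39.5 °C. By chromosome, singled out after their values were seen, 38 of 525 rows (7.24%) on chromosome 17 and 23 of 752 (3.06%) on chromosome 2 were at least 2-fold higher.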
